A study of Mus musculus with 12 samples.

Results

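The Hox genes were examined in RNA sequencing libraries from the brains of mouse embryos at embryonic day 14.5. Members were all rows of the gene count table whose symbol is Hoxa, Hoxb, Hoxc or Hoxd followed by a number, with 1 row per Ensembl identifier. The rule found 39 genes among the 40690 genes of the table, which is every member of the 4 clusters and of paralog groups 1 to 13 that the table lists. In the LC1 experiment, 3 wild-type embryos (6, 26 and 73) and 3 embryos with the genotype LC1 knockout (7, 22 and 71) were sequenced, all female. In the RKI experiment, 3 embryos wild type for the study's sequence variant (A2, A9 and A16) and 3 embryos homozygous for its knock-in (A1, A10 and A18) were sequenced, with 1 female and 2 males per group. LC1 is, from what is known of the study, a conserved non-coding element near Pou3f2, and the variant lies in it. All 12 embryos were of strain C57BL/6J. The labels give the tissue as brain, and their protocol describes dissection of the whole brain, matching of mutant and wild-type embryos by sex and litter, and library preparation from poly(A) RNA with oligo-dT. The litters are not named, and the counts do not show the genotypes.

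Hox genes encode homeodomain transcription factors that specify position along the body axis. They lie in 4 clusters whose gene order follows the order of expression along the axis, with low-numbered paralog groups expressed furthest forward. In the brain they are active in the rhombomeres of the hindbrain and in the spinal cord, and the forebrain and midbrain in front of the hindbrain do not normally express them, which is why their transcripts are used to tell whether hindbrain was part of a dissected sample.

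Sequences upstream of 4 members are shown because these promoters are the ones on which a transcript would start: Hoxb1 and Hoxa2, which mark hindbrain rhombomeres, Hoxd8, the member with the most counts, and Hoxa5, a member at 0 with a CpG-rich promoter. Each is the 250 bases before the RefSeq gene start, 5′ to 3′ on the gene's own strand, from build GRCm38.p6, with CG dinucleotides in capitals. Hoxb1 is at chr11:96365508-96365757 (plus strand), Hoxa2 at chr6:52164832-52165081 (minus), Hoxd8 at chr2:74704365-74704614 (plus) and Hoxa5 at chr6:52204588-52204837 (minus).
Hoxb1: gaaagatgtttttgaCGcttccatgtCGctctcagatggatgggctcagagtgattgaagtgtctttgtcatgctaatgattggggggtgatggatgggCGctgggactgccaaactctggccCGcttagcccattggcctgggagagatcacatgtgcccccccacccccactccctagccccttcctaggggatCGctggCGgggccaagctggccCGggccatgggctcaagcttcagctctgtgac
Hoxa2: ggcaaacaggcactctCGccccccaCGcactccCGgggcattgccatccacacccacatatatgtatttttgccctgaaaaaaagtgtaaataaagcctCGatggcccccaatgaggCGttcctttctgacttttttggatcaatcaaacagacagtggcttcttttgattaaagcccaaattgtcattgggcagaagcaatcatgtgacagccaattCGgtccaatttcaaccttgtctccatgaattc
Hoxd8: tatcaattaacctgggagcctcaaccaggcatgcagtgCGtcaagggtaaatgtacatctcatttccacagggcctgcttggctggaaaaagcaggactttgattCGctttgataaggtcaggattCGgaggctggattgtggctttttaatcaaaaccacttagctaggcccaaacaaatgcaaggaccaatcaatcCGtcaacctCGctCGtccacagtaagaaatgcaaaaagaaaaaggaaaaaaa
Hoxa5: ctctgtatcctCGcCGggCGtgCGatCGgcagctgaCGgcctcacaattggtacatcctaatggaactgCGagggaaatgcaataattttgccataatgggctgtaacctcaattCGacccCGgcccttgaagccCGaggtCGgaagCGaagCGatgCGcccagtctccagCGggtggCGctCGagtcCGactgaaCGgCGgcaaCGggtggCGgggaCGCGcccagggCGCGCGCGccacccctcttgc
RefSeq windows of 300 bases, from 250 before to 50 after the start, were on hand for 22 of the 39 members (24 windows). Their median was 14.5 CG dinucleotides and 57.7% GC, against 7 and 52.7% over 32851 windows of all genes. At least 20 CG dinucleotides were present in 11 of the 24 Hox windows (45.8%) and in 26.5% of all windows. The Hoxd8 window held 6 CG dinucleotides, and that of Hoxa13, a posterior member with 2 counts in all, held 45. The letters TGATNNAT, the pattern that Hox proteins bind together with their PBX partners, were searched on both strands. They were found in 4 Hox windows (16.7%) and in 8.85% of all windows. The match in Hoxb1 (TGATGGAT, plus strand) starts 162 bases before the gene start, and the one in Hoxa2 (TGATTGAT, minus strand) lies at bases 140 to 147 of the sequence above. The other matches were in Hoxb8 and Hoxd11.

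The Hox genes were at or near 0 in every brain library. Of the 39 members, 25 had 0 counts in all 12 libraries, and the other 14 had 84 counts in total, out of 262979835 counts over all genes. Hoxd8 and Hoxb9 held 60 of those counts (71.4%). Of the other 12 members with a count, none had more than 2 counts in any library. A count was present in 45 of the 468 combinations of member and library. The summed level of the 39 genes was 0.319 CPM (counts per 1000000 of the library total, scaled by TMM) over the 12 libraries, with a 95% exact Poisson interval of 0.255 to 0.396 that covers counting error only. For a single gene, a count of 0 allows up to 3 counts, as a one-sided 95% limit. This is 0.114 to 0.164 CPM in 1 library and 0.0114 CPM over all 12. The two-sided exact interval reaches higher, to 0.141 to 0.201 CPM in 1 library and 0.014 CPM over all 12.

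**Figure D1:**
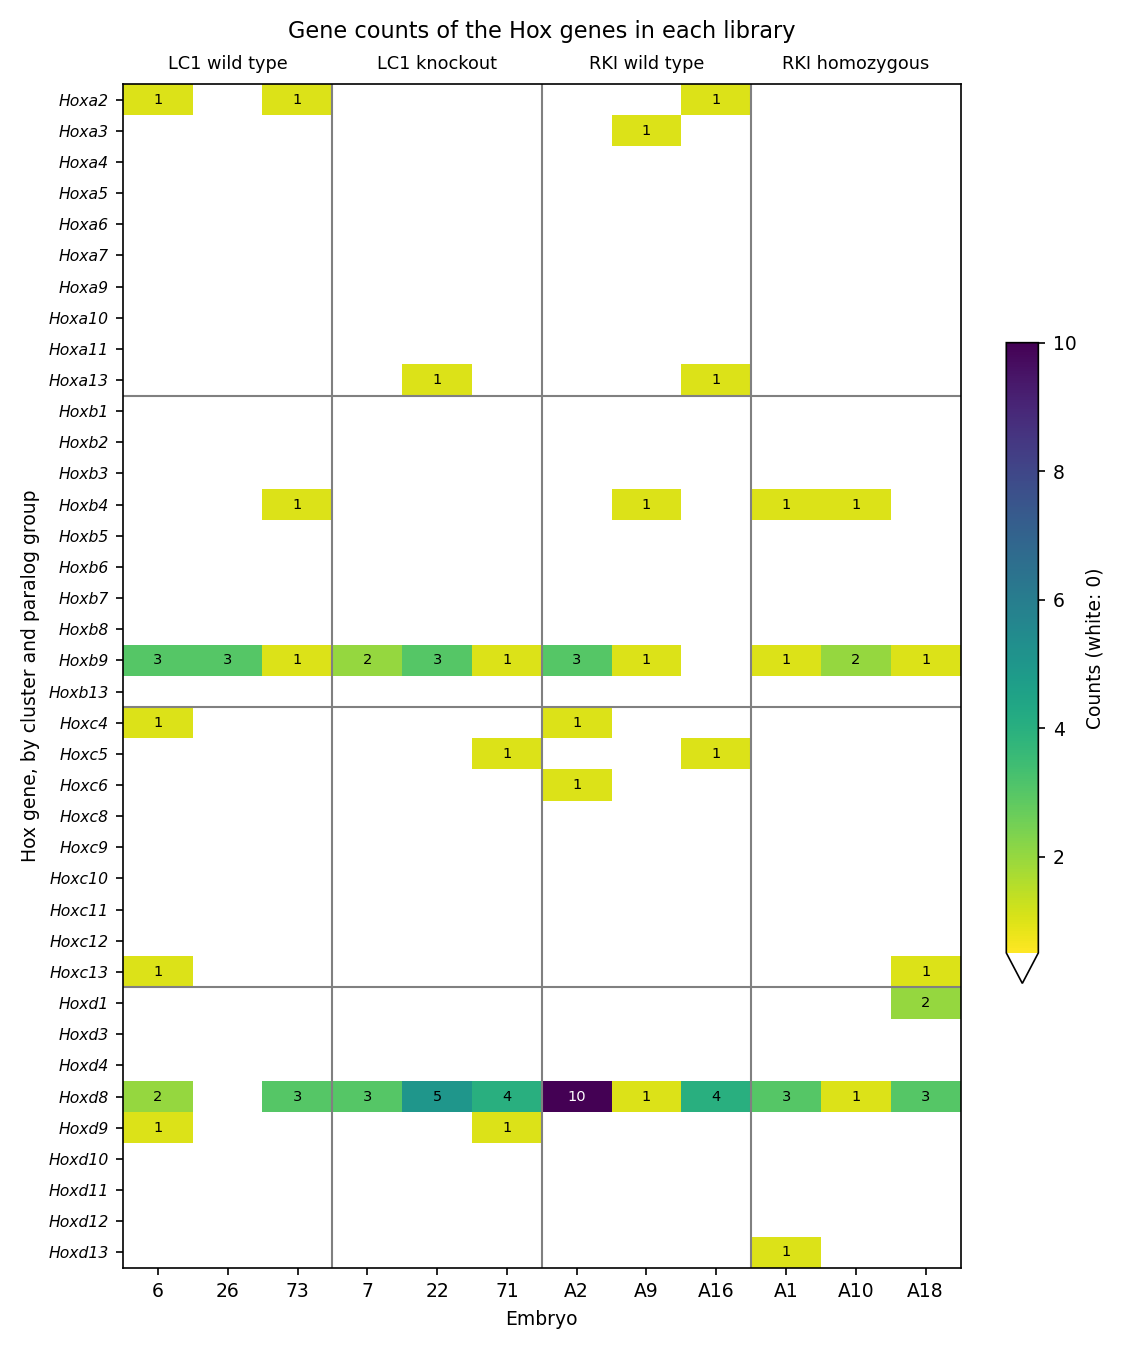
Gene counts of 38 of the 39 Hox genes (rows, ordered by cluster and paralog group) in the 12 libraries (columns, by group), with the count printed in each coloured cell and white for 0. The rows of Hoxd8 and Hoxb9 each hold counts in 11 libraries, and 25 rows are empty.

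Counts of 0 were more frequent among the Hox genes than in the table as a whole, given here as shares with no test. Of 21775 protein-coding genes, 16.9% had 0 counts in all 12 libraries, compared with 64.1% of the Hox genes. Of 186 other protein-coding genes with homeobox in their description, a set chosen after the values were seen, 32.3% were at 0. All 39 Hox genes had at most 10 counts in every library, as had 32.0% of protein-coding genes and 51.1% of the other homeobox genes. At 1 CPM or more in every library were 0 Hox genes, 59.7% of protein-coding genes and 40.9% of other homeobox genes. In GENCODE M21, 13 of the 25 members at 0 shared no exon base with another gene of the table, and 12 shared some. For 17 of the 25, over 90% of the exon bases were unshared. Among the other 8, Hoxb3, Hoxd3 and Hoxd4 had under 50% of their exon bases to themselves, and their 0 counts are less certain.

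By paralog group, the anterior groups that mark the hindbrain held few of the counts. The 15 genes of groups 1 to 5 had 16 counts over 12 libraries, a level of 0.0609 CPM (0.0348 to 0.0988), with 0 to 3 counts per library. In group 1, the first Hox genes to be switched on in the hindbrain, Hoxd1 had 2 counts, both in embryo A18, and Hoxb1, the marker of the fourth rhombomere, had 0 throughout. Group 2, which is expressed furthest forward in the hindbrain, had 3 counts, all of Hoxa2, 1 each in embryos 6, 73 and A16, and Hoxb2 was at 0. Group 3 had 1 count, of Hoxa3 in embryo A9. Group 4, expressed in the most posterior hindbrain, had 6 counts, 4 of Hoxb4 (1 each in 73, A9, A1 and A10) and 2 of Hoxc4 (1 each in 6 and A2), while Hoxa4 and Hoxd4 were at 0. Group 5 had 2 counts, both of Hoxc5, in embryos 71 and A16. No anterior member was present in more than 4 libraries, and embryos 7 and 26 had no count of groups 1 to 5.

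Groups 6 to 9, whose genes act in the trunk and spinal cord, held 63 counts, at 0.24 CPM (0.184 to 0.307). Most were in Hoxd8 and Hoxb9. Hoxd8 had 2, 0 and 3 counts in LC1 wild types, 3, 5 and 4 in LC1 knockouts, 10, 1 and 4 in RKI wild types and 3, 1 and 3 in RKI homozygotes. In CPM these were 0.0991, 0 and 0.151, then 0.16, 0.194 and 0.216, then 0.389, 0.0418 and 0.18, then 0.13, 0.0491 and 0.114. Embryo A2 had the highest value and embryo 26 none, and the 2 RKI groups overlapped. Hoxb9 had 3, 3 and 1 counts in LC1 wild types, 2, 3 and 1 in LC1 knockouts, 3, 1 and 0 in RKI wild types and 1, 2 and 1 in RKI homozygotes. Its values lay between 0 and 3 in every group, and all groups overlapped. On the deposited RPKM, which divides by gene length, the mean over 12 libraries was 0.0524 for Hoxd8 and 0.0316 for Hoxb9, and at most 0.00719 (Hoxa2) for any other member. The other counts of these groups were 1 of Hoxc6 (embryo A2) and 1 each of Hoxd9 in embryos 6 and 71. Both genes of group 7 were at 0 throughout.

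Groups 10 to 13, which pattern the most posterior trunk and the limbs, had 5 counts, all in group 13: 2 of Hoxa13 (1 each in embryos 22 and A16), 2 of Hoxc13 (1 each in 6 and A18) and 1 of Hoxd13 (A1). The 8 genes of groups 10 to 12 were at 0. Their floor of 3 counts over 12 libraries is 0.0114 CPM per gene. By cluster, the counts were 8 for Hoxa, 25 for Hoxb, 7 for Hoxc and 44 for Hoxd.

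Genes on both sides of the clusters, whose own Hox genes were at or near 0, were expressed. In GENCODE M21 on GRCm38, whose build may differ from that of the deposited files, the clusters run from 52155590 to 52260880 on chromosome 6 (Hoxa), 96194316 to 96368256 on chromosome 11 (Hoxb), 102921103 to 103036852 on chromosome 15 (Hoxc) and 74668310 to 74765142 on chromosome 2 (Hoxd). Within 500 kb of them lie 50 other protein-coding genes, of which 30 (60%) were at 1 CPM or more in every library. The share over all protein-coding genes was about the same, at 59.7%. Mtx2, a mitochondrial outer membrane protein gene beside Hoxd, had a mean of 15.4 RPKM with 1015 to 1460 counts, Smug1, a DNA glycosylase gene beside Hoxc, 7.83 RPKM with 449 to 703, and Skap2 beside Hoxa 2.2 RPKM with 55 to 114. Snf8, an ESCRT component gene on the Hoxb side, had 8.78 RPKM with 432 to 647 counts. Each of these genes lay above every Hox gene per length. Other Hoxb flanks varied. Ube2z, nearer than Snf8, had 22.6 RPKM, and the still nearer Ttll6 and Calcoco2 had 0.237 and 0.0183. Skap1, on the Hoxb1 side, had 0.168 RPKM with 18 to 35 counts. Of the 18 genes flanking Hoxb, 9 were at 1 CPM or more in every library. The homeobox genes Evx1 and Evx2, which sit at the posterior ends of Hoxa and Hoxd, had 0 to 2 and 0 to 4 counts. Inside the clusters, 44 further annotated genes, mainly antisense and non-coding RNAs, had 260 counts, 244 of them in the processed pseudogene Gm11539. Hotair, Hotairm1, Haglr, Mir10a and Mir10b were at 0 in every library, and a poly(A) library reads mature microRNAs poorly.

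**Figure D2:**
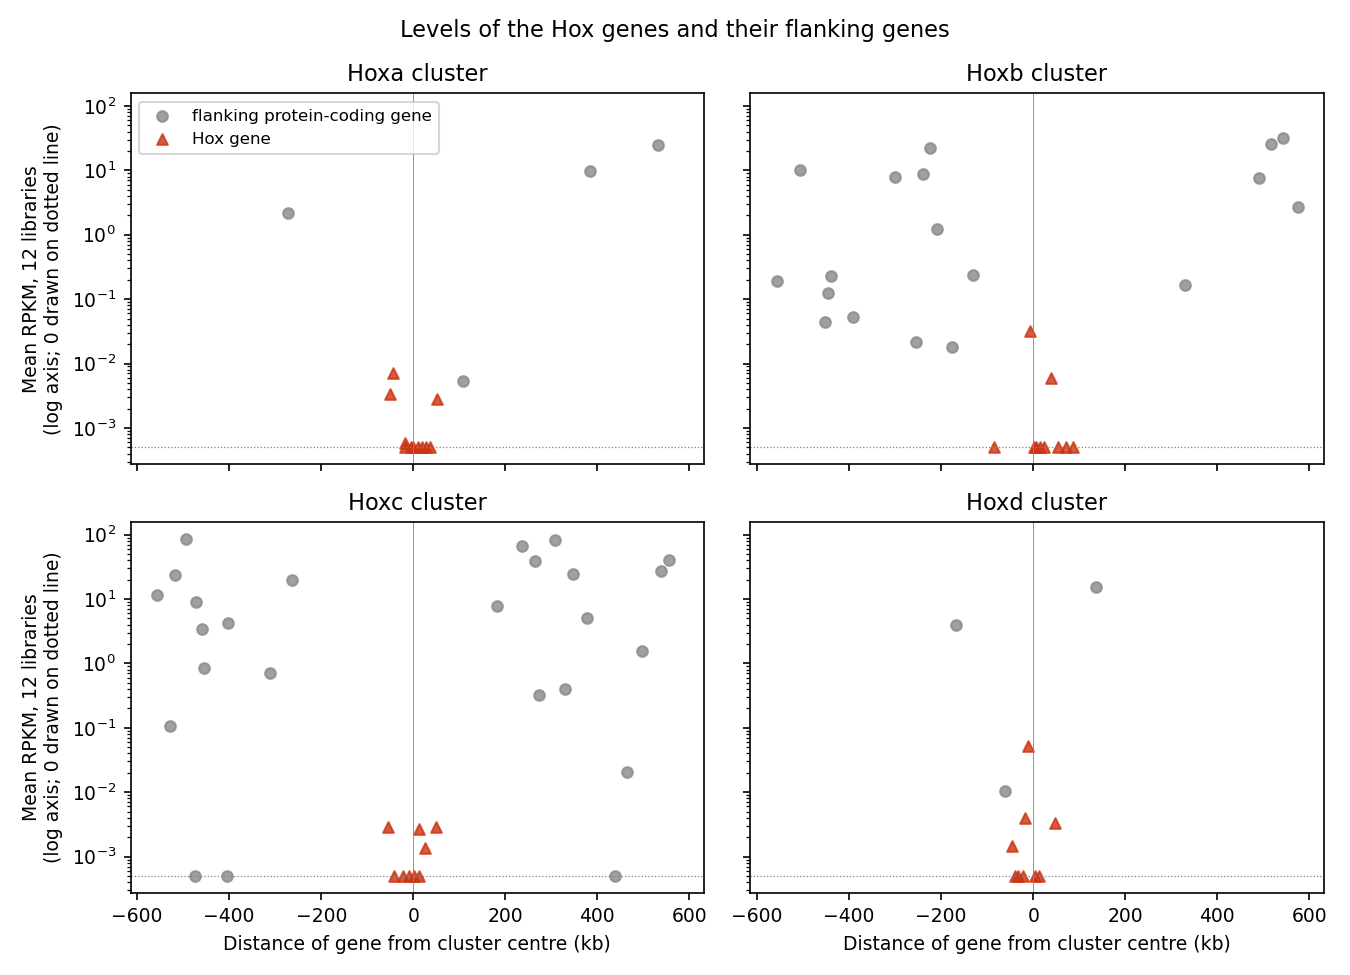
Mean deposited RPKM over the 12 libraries (log axis, with 0 drawn on the dotted line) against the distance of each gene from the centre of its Hox cluster in kb, 1 panel per cluster. Red triangles are the Hox genes, and grey circles are protein-coding genes within 500 kb of the cluster's ends. Hox genes reach at most 0.0524 RPKM. The highest flanking gene is at 85.4 for Hoxc, 31.5 for Hoxb, 24.3 for Hoxa and 15.4 for Hoxd.

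Markers that define hindbrain cell types outside the Hox family were also at or near 0. Of 22 hindbrain genes outside the Hox family, 11 had at most 10 counts in every library. Fev, a serotonergic factor, was at 0, Phox2a, a factor of branchial motor and noradrenergic neurons, had at most 2 counts, and Atoh1, the rhombic lip factor, at most 1. Egr2 (Krox20), a factor of segmenting rhombomeres, had 1 to 11 counts, and Tph2, a serotonin synthesis enzyme, 2 to 11. Of the list, 9 genes were at 1 CPM or more in every library, among them Lmx1b, Barhl1, Barhl2, Olig3, Lhx9, Pou4f1, Gbx2 and Dbx1, which are also expressed in other brain regions or cells. The label of whole brain stood beside hindbrain-defining markers at or near 0 in all 12 libraries.

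Forebrain genes were abundant in the same libraries. All 16 forebrain genes were at 1 CPM or more in every library, with a median of 20 RPKM. Tbr1, a factor of early cortical neurons, had 6728 to 10972 counts. Of the 14 isthmus, midbrain and cerebellum genes, 5 were at 1 CPM or more in every library: Otx2, a factor of forebrain and midbrain (660 to 1169 counts), Spry1 (388 to 681), Fgf17 (53 to 162), Fgf18 (48 to 99) and Sall4 (25 to 50). En1 had 0 to 44 counts, En2 0 to 26 and Pax2 3 to 19, and 2 of the 14 had at most 10 counts in every library. Of 12 spinal cord and motor neuron genes, 5 were at 1 CPM in every library, led by Slit2 (1782 to 2561 counts) and Isl1 (992 to 1772), and 6 had at most 10 counts in every library, among them the motor neuron factor Mnx1 (at most 1) and Chat (1 to 10). Of 11 skeletal muscle genes, 2 were at 1 CPM in every library (Ttn, 53 to 114 counts, and Acta1, 42 to 74), and 5 had at most 10 counts, among them the muscle factors Myod1 and Myog (at most 2) and Myf5 (0). Of 12 cartilage and vertebral column genes, 4 were at 1 CPM in every library, among them Sox9 (1605 to 2409 counts) and Col2a1 (1315 to 2169), and 5 had at most 10 counts, among them the vertebral factors Pax1 and Pax9 (at most 2 each).

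**Figure D3:**
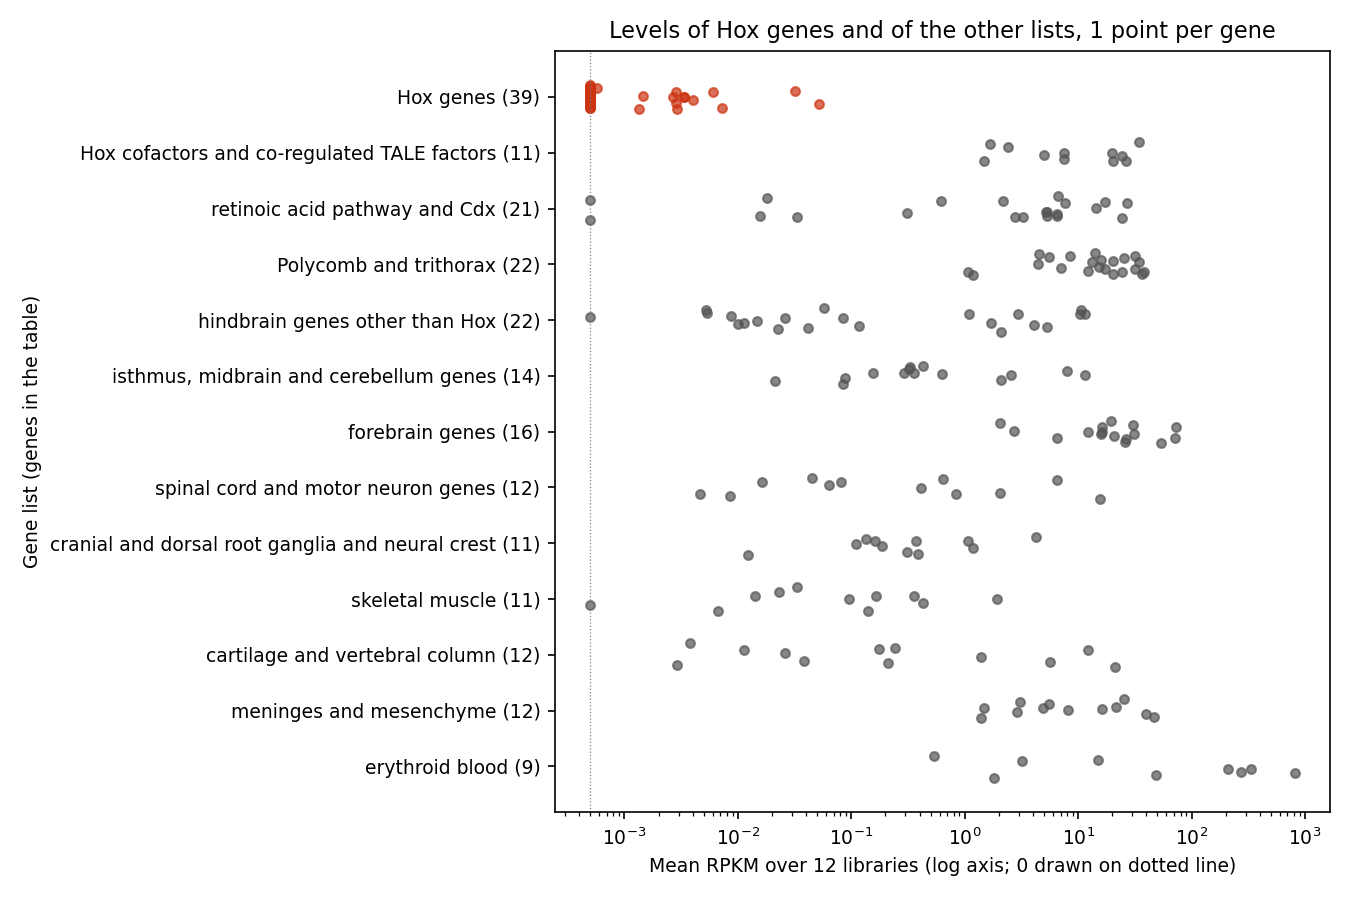
Mean deposited RPKM over the 12 libraries for each gene (1 point per gene, log axis, 0 drawn on the dotted line), with the Hox genes in red and 12 other gene lists in grey. The Hox genes lie below 0.1 RPKM, and the genes of the forebrain, Polycomb and trithorax, and cofactor lists lie above 1 RPKM.

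Genes for the partners and regulators of Hox proteins were expressed in the same libraries. The list of Hox cofactors and co-regulated factors holds 11 genes of the PBX, MEIS, PKNOX and TGIF families. All 11 were at 1 CPM or more in every library, among them Meis2, a homeodomain partner of Hox proteins, with 5487 to 9188 counts. All 22 Polycomb and trithorax genes were at that level, including Ezh2, the enzyme that writes the repressive mark on histone H3 of silent Hox clusters, at 2273 to 3327 counts. In the retinoic acid pathway, which induces anterior Hox genes, 15 of 21 genes were at 1 CPM in every library. Aldh1a2, which makes retinoic acid, had 216 to 454 counts and Rarb, a receptor, 309 to 603. The Cdx factors, which act upstream of posterior Hox genes, were at 0 (Cdx2, Cdx4) or at most 2 counts (Cdx1).

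The 2 genotype comparisons asked whether the mutants' Hox levels differed from wild type. None of the 39 members passed edgeR's low-count filter, so none was tested among the 16002 genes of the fit of 12 libraries. That fit called 0% of the genes for LC1, 0% for RKI and 0% for the difference between these effects at an adjusted p under 0.05. The comparison of the 2 wild-type groups called 0.0125% (2 genes), neither a member. At an unadjusted p under 0.05 there were 334 genes for LC1 and 307 for RKI, and DESeq2 and limma-voom called 0 genes in both. With no filter, 14 members were tested among 27458 genes. None was called, against 0.0146% of all genes for LC1 and 0.0947% for RKI. None had an unadjusted p under 0.05, against 2.39% for LC1 and 2.71% for RKI. Of the 14, 12 held only 24 counts together over the 12 libraries. With so few counts the test could hardly reach such a p, so the lack of calls decides nothing for those members. The smallest unadjusted p values were for Hoxd8 (0.208 for LC1 and 0.205 for RKI, adjusted p of 1 with edgeR in both), then for Hoxa2 (0.212) and Hoxb4 (0.37) in LC1, and for Hoxd1 (0.236) and Hoxa2 (0.381) in RKI.

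Hoxd8 was the 1 member whose LC1 groups did not overlap: all 3 knockouts were above all 3 wild types, at 0.19 ± 0.0283 against 0.0834 ± 0.0767 CPM (mean ± SD, n = 3 each). Among all genes with a count, 2.89% had LC1 knockouts above wild types with no overlap, and 3.38% below; in RKI these shares were 2.34% and 2.88%, with 0 members in either. The LC1 difference rested on 12 against 5 counts. In raw counts the groups met, since wild type 73 and knockout 7 both had 3, and the separation of 0.151 from 0.16 CPM came from the library totals. The exact two-sided permutation test gave p = 0.1 (adjusted 0.4 over 4 tests), the smallest value that 3 against 3 can give. In RKI, homozygotes had 0.0978 ± 0.0429 and wild types 0.204 ± 0.175 CPM, 7 against 15 counts, of which embryo A2 held 10 (exact permutation p = 0.5, adjusted 0.8). Hoxb9 gave 0.0924 ± 0.0336 against 0.121 ± 0.0616 CPM in LC1 (exact permutation p = 0.6, adjusted 0.8) and 0.0599 ± 0.0333 against 0.0528 ± 0.0591 CPM in RKI (exact permutation p = 0.9). Neither gene's difference passed a test in either experiment. With 3 embryos per group the permutation test cannot give a p under 0.1, so no difference of any size could pass it at 0.05. Counts of this size also cannot show small differences.

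The authors' deposited table for LC1 lists 10 members, with a smallest p of 0.0596 for Hoxd8 (log2 fold change 1.2, adjusted p 0.937) and no adjusted p under 0.937. The authors' deposited table for RKI lists 12 members, with Hoxd8 again at the smallest p of 0.208 (log2 fold change -0.75 for homozygous minus wild type, adjusted p 0.997). The authors' deposited tables call 0 members in either experiment.

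Summed over the 39 genes, the levels of the 4 groups overlapped. The sum was 0.446, 0.164 and 0.352 CPM in LC1 wild types (mean 0.321 ± 0.144 SD, n = 3) and 0.267, 0.388 and 0.378 in LC1 knockouts (0.344 ± 0.0672). It was 0.583, 0.167 and 0.315 CPM in RKI wild types (0.355 ± 0.211) and 0.26, 0.196 and 0.267 in RKI homozygotes (0.241 ± 0.0391). The log2 ratio of mutant to wild-type sums was 0.10 for LC1 and -0.56 for RKI, against a pooled SD within groups of 0.62 on the log2 scale. Without embryo A2 the RKI ratio was -0.00013. The LC1 ratio ran from -0.21 without embryo 26 to 0.42 without embryo 6. On RPKM the LC1 ratio was -0.01. For groups 1 to 5 alone the counts were 5 in LC1 wild types, 2 in LC1 knockouts, 5 in RKI wild types and 4 in RKI homozygotes. In a bulk sample, fewer cells of a type and less RNA per cell cannot be told apart.

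**Figure D4:**
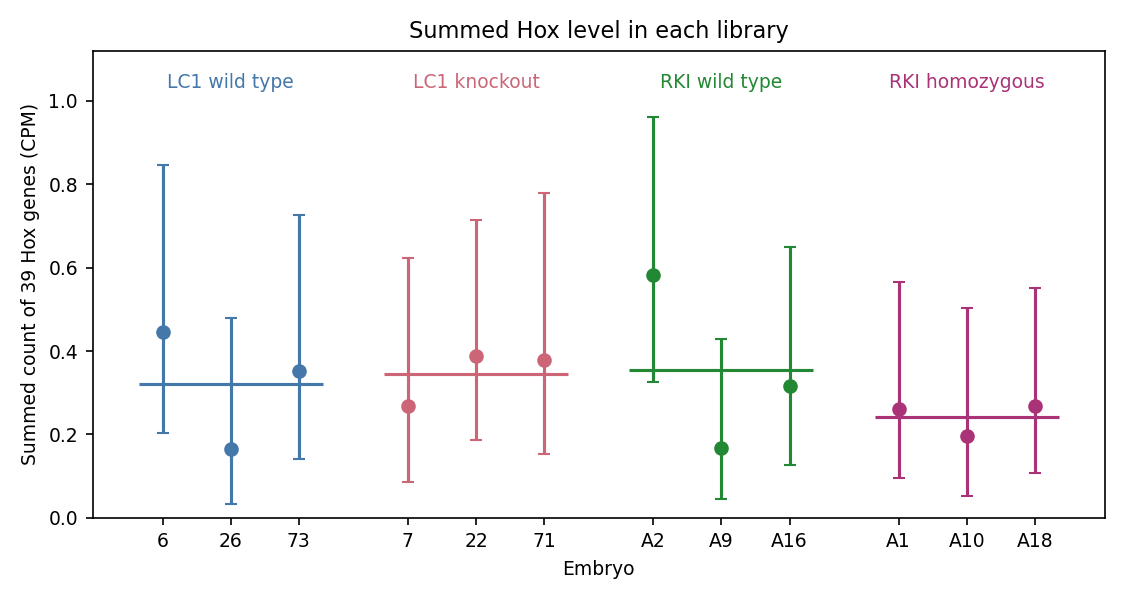
Summed count of the 39 Hox genes per library in CPM (vertical axis, from 0) for the 12 embryos by group, with exact 95% Poisson intervals (counting error only) and a horizontal line at each group's mean. The lowest library is at 0.164 and the highest at 0.583, and the intervals overlap between the groups.

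Embryo A16, an RKI wild type, was at the end of the range for several genes of the hindbrain, midbrain and forebrain lists, in both directions. Its Lmx1b was 1.53 CPM (7.05 to 11.9 in the other 11 libraries) and its Barhl1 1.04 CPM (6.14 to 11.9), and En1 and En2 were both at 0. It was the highest library for Fgf17 (7.29 CPM, against 2.29 to 4.58), Fgf8 (1.67 against 0.418 to 1.25) and Otx2 (52.6 against 32.9 to 40.6). In the forebrain list, embryo A16 was the lowest for Tcf7l2 (143 CPM, against 212 to 322) and the highest for Lhx2 (287 against 202 to 261). The Hox sum of embryo A16 was 7 counts, within the range of 3 to 15 over all libraries. Without that library the RKI log2 ratio of summed Hox CPM was -0.64.

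The deposited transcript estimates, which are not whole numbers, differed most from the gene counts for Hoxb9, Hoxc6 and Hoxb8. Hoxc6-002 had an estimate of 11.2 to 23.1 in all 12 libraries, where the gene count was 0 in 11 libraries and 1 in embryo A2. Hoxb9 transcripts summed to 13.8 to 27.1, where the gene count was 0 to 3, and in embryo 6 the whole sum stood under Hoxb9-001 rather than Hoxb9-002. Hoxb8 transcripts summed to 2.5 to 8.34 while the gene count was 0 throughout. For Hoxd8, both tables were low: the estimates were 0 to 13.8 and the counts 0 to 10, highest in embryo A2 in both. Smaller differences went both ways: Hoxb3 had estimates of 0.99 and 1.31 in embryos 73 and A1 and Hoxd4 1.92 in A9 with gene counts of 0, Hoxb4 had 2.13 in embryo 26 and 3.17 in A18 with gene counts of 0 there, and the 2 counts of Hoxd1 in A18 had an estimate of 0. Of 87 Hox transcripts, 13 had an estimate above 0 in any library, 3 of them in 11 or more, and 22 members were at 0 in both tables in every library.

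**Figure D5:**
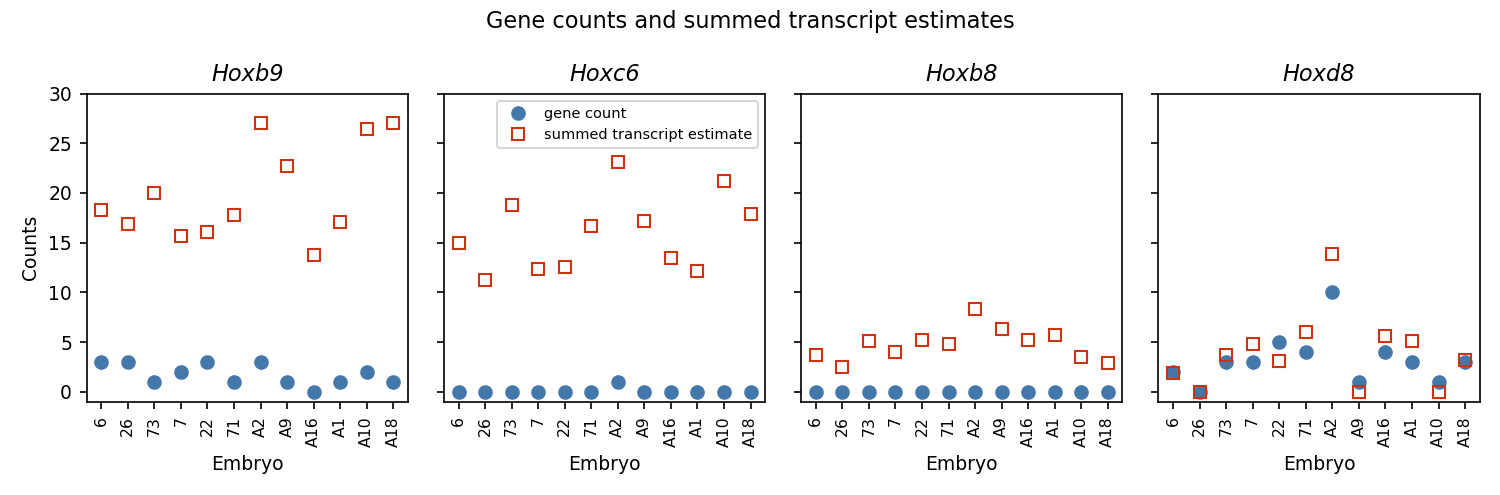
Gene count (filled circles) and summed transcript estimate (open squares) in counts for Hoxb9, Hoxc6, Hoxb8 and Hoxd8 in each of the 12 libraries (embryos, LC1 then RKI). The estimates lie above the gene counts for Hoxb9, Hoxc6 and Hoxb8 in every library, and close to them for Hoxd8.

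The longest uninterrupted CT or GA dinucleotide run of these transcripts in M21 was 49 bases in Hoxb9-002 (as long or longer in 0.412% of all transcripts), 13 in Hoxc6-002 (2.42%) and 12 in Hoxb8-001 (2.79%), against a median of 7 over the 87 Hox transcripts. Hoxc9-001 had a run of 65 bases and an estimate of 0 in every library. The part of these repeats in the estimates was not tested.

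Genes whose level ran most like the summed Hox CPM across the 12 libraries were C2cd4d (Pearson r = 0.846), Ccdc3 (0.818), Zfp599 (0.815), Zfp595 (0.808), A430035B10Rik (0.803), Ccdc96 (0.795), Pdgfc (0.792), Zfp799 (0.78), Fbxl12os (0.773) and N4bp2l2 (0.771), among 14214 genes with a mean of at least 1 CPM. With 3 to 15 Hox counts behind each point, these are descriptions of the 12 libraries, which differ in depth and come from 2 experiments.

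The other lists contained no called gene in either experiment. For LC1, higher and lower among the genes tested were 1 and 4 for cluster non-coding RNAs and neighbours, 9 and 2 for cofactors, 8 and 8 for the retinoic acid pathway, 17 and 5 for Polycomb and trithorax, 5 and 4 for hindbrain and 5 and 7 for midbrain genes. They were 14 and 2 for forebrain, 4 and 2 for spinal cord, 4 and 4 for ganglia, 2 and 3 for muscle, 2 and 5 for cartilage, 0 and 12 for meninges and 3 and 6 for erythroid genes. For RKI they were 3 and 2, 6 and 5, 8 and 8, 9 and 13, 5 and 4, and 6 and 6 for the first 6 lists in that order. For the last 7 they were 9 and 7, 3 and 3, 6 and 2, 5 and 0, 1 and 6, 6 and 6, and 7 and 2. The median log2 fold change over all genes was -0.00302 for LC1 and 0.00122 for RKI, and the medians of the hindbrain genes tested were 0.00394 and 0.00381.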

How the data were processed

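Polyadenylated RNA of 12 embryonic mouse brains was sequenced. The authors deposited whole-number gene counts, gene RPKM (counts per length and library total), estimated counts per transcript (not whole numbers, used only descriptively), and tables of their own comparisons holding log2 fold changes and p-values. Tools listed by the submitters' processing notes, with no role stated, are limma, edgeR, featureCounts 1.4.5, Subread and STAR 2.0.4b. For build, annotation release and strand setting, nothing is given in the sources used. The count table has 41264 rows for 40690 identifiers, and 1 row per identifier was kept. Library totals were 18192984 to 26566769 counts, and no pair of replicates agreed within sampling noise.

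Gene counts were tested with edgeR 4.0.16 (R 4.3.3; TMM, filterByExpr by group, robust quasi-likelihood test, Benjamini-Hochberg adjustment at 0.05), with 12 libraries, 4 group means and a sex term, leaving 7 residual degrees of freedom. The method was tested on simulated data. Only genes well above the Hox levels were changed there, so that test says nothing about the Hox genes. CPM is per 1000000 counts of the TMM-scaled total. Exact permutation tests and Poisson intervals used scipy 1.17.1. No label says the embryos came from separate litters, so p-values measure only the spread between these embryos. Alternatives were DESeq2 1.42.0, limma 3.58.1 (voom), RLE scaling, library totals, no filter, no sex term, 6 libraries alone, leaving out each library, and RPKM. Every member is counted in the totals, and 1 is not reported by name here; those named with each library's value have the highest levels, and those named per comparison have the 3 smallest p values. The members and lists were chosen with earlier results of these data known. Gene positions and transcripts come from GENCODE M21 (GRCm38) and promoters from RefSeq (GRCm38.p6). The genes of each list and the CpG and motif counts are descriptions.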

Additional observations from a re-analysis of the deposited data

How the results depend on the processing

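With no low-count filter, 14 Hox genes entered the fit in place of 0. The genes called rose to 4 for LC1, 26 for RKI, 17 for the difference between the effects and 28 for the wild-type lines. There were 0 Hox genes among them, but 12 of the 14 had too few counts for a call to be likely. Leaving out each library in turn gave 0 to 2 called genes for RKI (1 without A1, 2 without A9 and 2 without A10), 0 to 1 for the difference (1 without A1, A9 or A10) and 1 to 2 for the wild-type lines (1 without 6, 26, 73 or A9), against 0, 0 and 2. The cause was not tested. In the other settings for which Hox genes past the filter were counted, none entered the fit, so 0 calls there say nothing about stability. In all, 150 results were classed as the same and 15 as moved. A count was the same if it stayed at 0 or within 1.5 times. A log2 ratio or summed level was the same if it changed by less than the SD within groups, whatever the sign of the ratio. The log2 ratios of summed Hox CPM moved by less than the SD within groups under library totals, RPKM and leaving out each library, but their sign was not stable for LC1 (-0.21 to 0.42 over libraries left out) and their size was not for RKI (-0.90 to -0.00013). The planned fold changes of single members and their median could not be computed, because no member passed the filter. No paired analysis was possible because the labels name no litters and the embryo numbers are not shared between groups. Depth sets the limit: a count of 0 in 1 library allows a level of up to 0.114 to 0.164 CPM, as a one-sided 95% limit.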
